A study of Homo sapiens with 4 samples.

Results

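CEBPB binding was described around 8 genes of epidermal growth factor (EGF) signalling in NCM460, a cell line derived from normal human colon mucosa. The genes were the receptors EGFR, ERBB2 and ERBB3, the ligands HBEGF, TGFA, AREG and EREG, and the inhibitor ERRFI1. The summits and reproducible regions of the CEBPB peak lists were selected on their position, within 200 kb of the transcription start site (TSS) of each gene. They came to 54 of the 25602 reproducible regions on chromosomes 1 to 22 and X, 175 of 80530 summits in replicate 1 and 201 of 104307 summits in replicate 2. AREG and EREG are neighbours, and 5 of the 54 regions counted for both genes.

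The series held 2 ChIP samples made with an antibody to CEBPB and 2 input samples, all from NCM460 cells with no treatment named, grown in serum-containing medium, and its design text calls the replicates independent experiments. CEBPB, a C/EBP family protein, binds DNA as a dimer through a basic leucine zipper. Each ChIP sample had its own list of peaks, and the inputs entered only as the background in those lists. No RNA was analysed here, so colon epithelial markers were not checked and nothing below is a measure of expression. A reproducible region is an interval in the authors' deposited IDR table, which scores peaks by an irreproducible discovery rate, at a global IDR of at most 0.05. Its fold is the authors' ratio of ChIP signal to background at the summit, and its fragments are the reads or read pairs at the summit recovered from the deposited fold and p-value. TSS positions in hg19 were known to 0.5 kb, and the windows also held other genes, so no region was assigned to a gene.

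The ERBB receptors are membrane tyrosine kinases that pair with each other when a ligand binds. HBEGF, TGFA, AREG and EREG are made as membrane-bound precursors and shed by proteases, and all bind EGFR, HBEGF and EREG also ERBB4. ERBB2 has no known ligand, ERBB3 has little kinase activity of its own and binds neuregulins, and ERRFI1 (also called MIG6) is a feedback inhibitor that binds the EGFR kinase domain. In colon epithelium the pathway is known for its part in proliferation and in repair after injury.

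The inhibitor locus held the most regions within 200 kb and shared the lead with EGFR within 50 kb. ERRFI1 had 18 reproducible regions within 200 kb, and only 0.243% of 13601 overlapping windows of 400 kb across the genome held at least as many. Windows without a called summit in either replicate were left out of the 13601. EGFR had 10 regions, a number reached by 7.54% of windows, and ERBB3 had 8, reached by 14.2%. AREG and EREG had 7 each (19.6% of windows) and HBEGF had 6 (26.4%). TGFA had 2 regions (66.7% of windows) and ERBB2 had 1 (80.9%). The median window held 3 regions, with quartiles of 1 and 6. The 8 loci therefore ran from below the median window to the far upper end, and no single density described them. Within 100 kb of the start ERRFI1 had 8 regions and EGFR 7, and within 50 kb both had 5. The count was also made from the summits of 1 replicate at or above the median fold of its reproducible regions. ERRFI1 then had 8 without replicate 1 and 12 without replicate 2, EGFR had 8 and 5, and ERBB3 had 5 and 3. AREG had 5 and 6, EREG 5 and 7, HBEGF 2 and 1, TGFA 1 and 1, and ERBB2 0 and 1. The order below ERRFI1 thus changed, with EREG and AREG above EGFR and ERBB3 without replicate 2. ERRFI1 remained the highest of the 8 without replicate 2 and tied with EGFR without replicate 1. The genes were chosen with these counts known, so the members were in effect chosen by their peak counts and folds and the counts are a description, with no test.

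**Figure D1:**
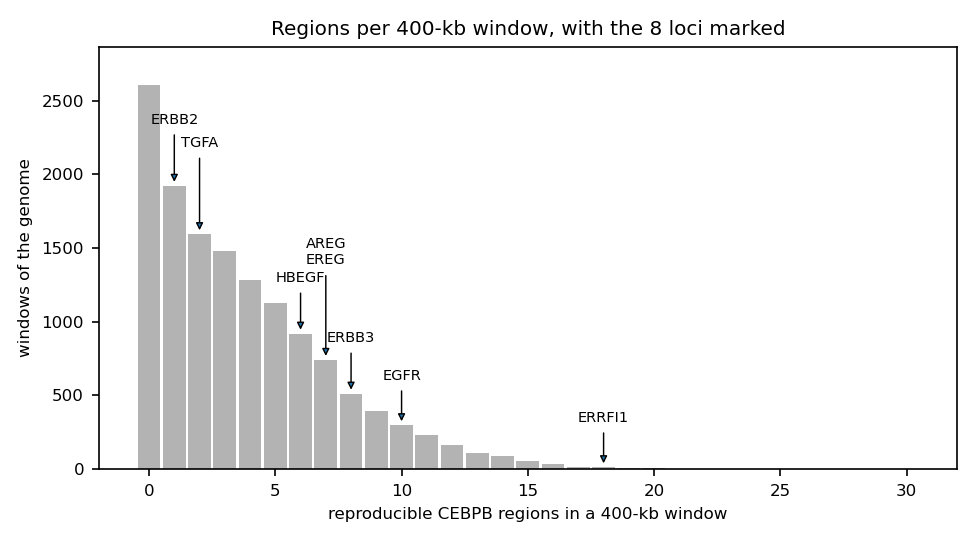
Number of 400-kb windows with a called summit (vertical axis) by the number of reproducible CEBPB regions they hold (horizontal axis), in steps of 200 kb. An arrow marks the count of each gene's own window. ERRFI1, with 18 regions, sits in the thin upper tail, while ERBB2 with 1 and TGFA with 2 lie below the median window of 3.

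In strength the 54 regions were spread over the range of all regions. Their median fold, as the mean of the replicates, was 17.9 against 15.8 for all 25602 regions, and 32 of them (59.3%) lay above that overall median. They had a median of 68 fragments in replicate 1 and 81.5 in replicate 2, beside 58 and 76 for all regions. Among the 10% strongest regions of the genome were 5 of the 54 (9.26%). An IDR of at most 0.01 was reached by 34 of 54 (63.0%), beside 60.6% of all regions. More than 1 summit was called in 11 regions (20.4%, against 15.8%). Each of these shares lay close to that of the genome.

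By role, the 19 receptor regions had a median fold of 17.7 (range 9.93 to 29.8), the 17 ligand regions 18.5 (9.88 to 34.4) and the 18 inhibitor regions 17.9 (9.21 to 38.0). Medians differed by less than the spread inside each role. Fragments ordered the roles differently, with medians of 77 and 91 in replicates 1 and 2 at receptor loci, 75 and 76.5 at ERRFI1 and 52 and 67 at ligand loci. Upstream and downstream sides were even, with 30 of the 59 gene and region pairs upstream. ERRFI1 alone gave 14 of those 30, and had 4 downstream.

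**Figure D2:**
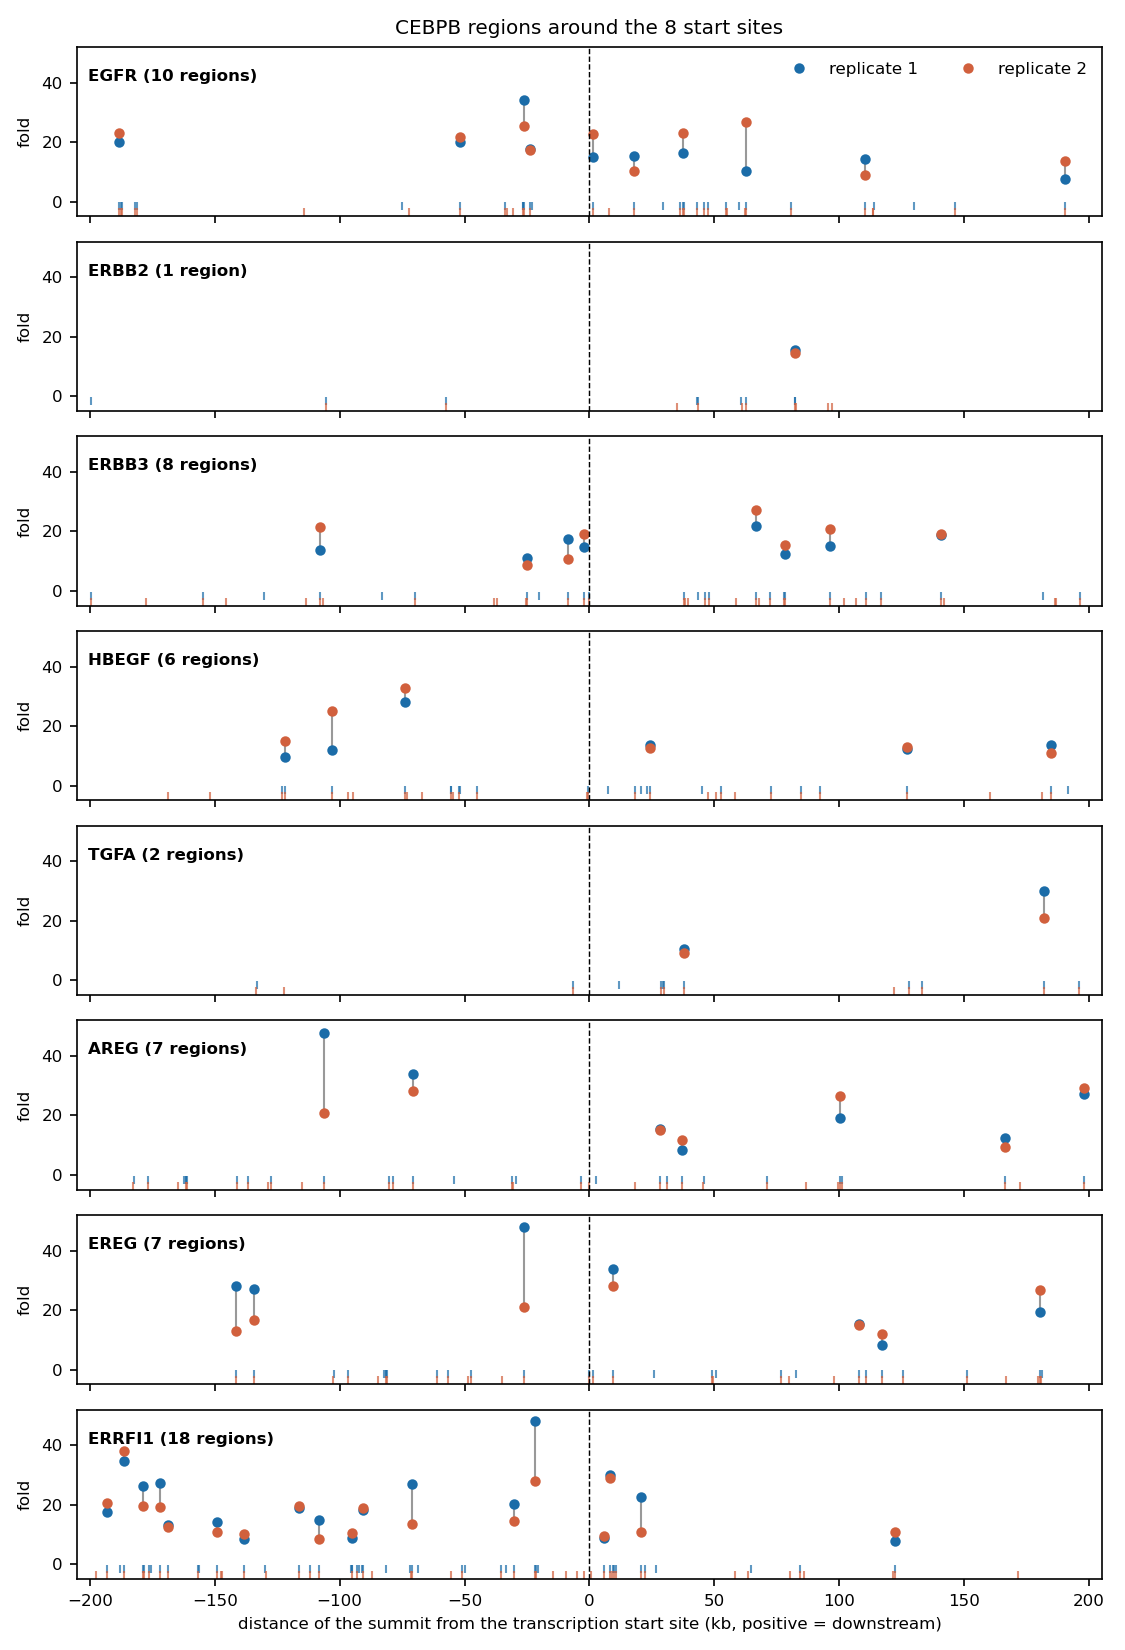
Fold of each reproducible region in replicate 1 (blue) and replicate 2 (orange), joined by a line, against the distance in kb of its summit from the TSS of each of the 8 genes (positive values lie downstream in the direction of transcription); ticks at the bottom of each panel mark all called summits. Regions crowd the upstream side of ERRFI1, ERBB2 has 1 region at 82.4 kb, and AREG and EREG show the same 5 regions at shifted distances.

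At the start sites themselves only summits outside the reproducible regions were called. Within 1 kb of the TSS no reproducible region was found at any of the 8 genes, and 6 summits in replicate 2 and 3 in replicate 1 were called there. EREG, the gene for the ligand epiregulin, had a summit 0.21 kb upstream in replicate 1 (fold 5.58, 23 fragments) and 0.22 kb upstream in replicate 2 (fold 10.9, 38 fragments). HBEGF, the gene for heparin-binding EGF-like growth factor, had a summit 0.47 kb upstream in replicate 1 (fold 6.01, 18 fragments). In replicate 2 the HBEGF peak had summits 0.52 and 0.82 kb upstream, with folds of 7.31 and 6.73. Both replicates thus marked the start regions of EREG and HBEGF. The folds were under the median of reproducible regions, whose folds run higher than those of all summits. The median fold of all summits was 6.99 in replicate 1 and 6.53 in replicate 2. Both genes were below it in replicate 1 and above it in replicate 2.

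ERBB3, a receptor for neuregulins, had a summit 0.08 kb upstream in replicate 1 (fold 5.92, 19 fragments) and 0.03 kb upstream in replicate 2 (fold 3.50, 25 fragments). AREG, the gene for amphiregulin, had a summit in replicate 2 only, 0.31 kb upstream with 13 fragments and a fold of 3.80. ERRFI1 also had one in replicate 2 only, 0.70 kb downstream with 19 fragments and a fold of 5.70. Why replicate 1 had no partner for these summits was not tested. EGFR, ERBB2 and TGFA had no summit within 1 kb in either replicate. At ERBB2 no summit of any strength lay within 30 kb of the TSS used here. The nearest was 43.0 kb downstream in replicate 1 and 35.0 kb downstream in replicate 2. ERBB2 has several starts, and the distances hold for this start only.

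**Figure D3:**
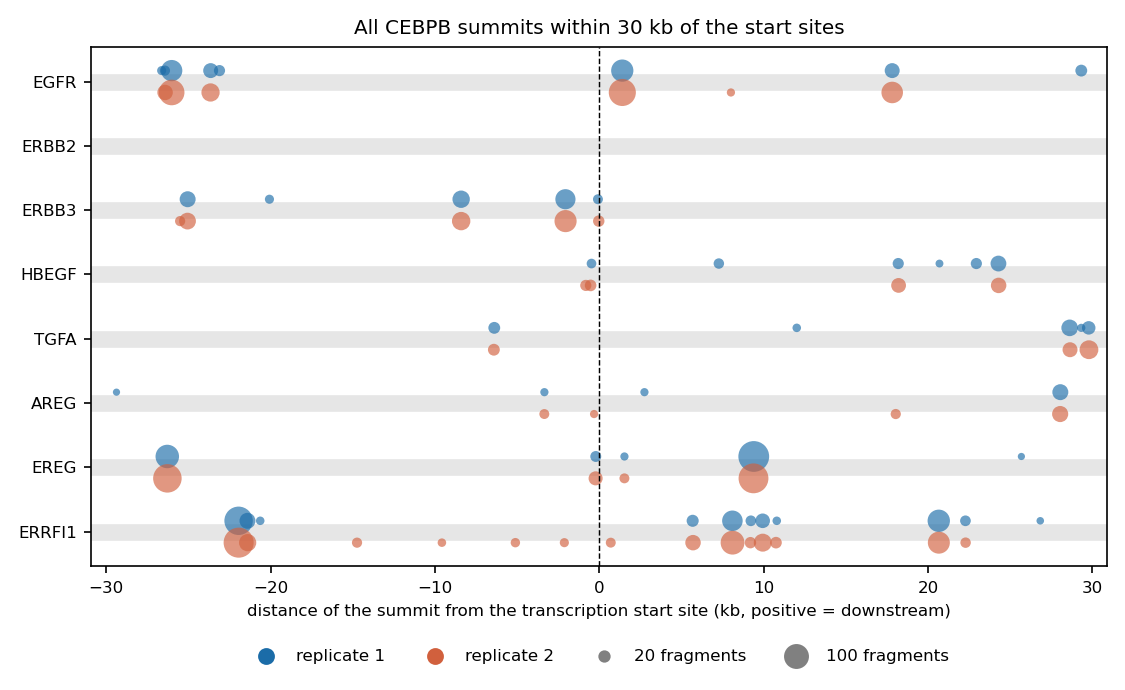
All called summits within 30 kb of each TSS (horizontal axis, kb) in replicate 1 (blue, above the line) and replicate 2 (orange, below the line), with point area in proportion to fragments. Small points sit at the starts of ERBB3, HBEGF and EREG in both replicates, larger ones at 1.4 kb for EGFR and 9.4 kb for EREG, and the row of ERBB2 is empty.

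Promoter sequences are shown for the 3 ligand genes with a summit just upstream of the start, since the letters there bear on whether a C/EBP site lies at the start itself, and for the only member promoter with a C/EBP match. They are the 250 bases before the start from RefSeq on GRCh38.p14, another build than that of the peaks, written 5′ to 3′ on the strand of the gene. EREG lies at chr4:74364895-74365144 (plus strand), AREG at chr4:74444886-74445135 (plus strand), HBEGF at chr5:140346604-140346853 (minus strand) and the EGFR entry at chr7:55109589-55109838 (plus strand), which is the later of 2 EGFR starts in the table and not the one used for distances. Capitals mark every match to a motif searched on both strands. By the distances above, the EREG summits fall within the 250 bases. By the same distances those of AREG (0.31 kb upstream) and HBEGF (0.47 to 0.82 kb upstream) lie beyond them. At EREG and AREG the margin is smaller than the 0.5 kb error of the TSS, so either placement could be wrong. With TSS positions known to 0.5 kb, the sequences cannot show whether a C/EBP site lies under these summits.
EREG: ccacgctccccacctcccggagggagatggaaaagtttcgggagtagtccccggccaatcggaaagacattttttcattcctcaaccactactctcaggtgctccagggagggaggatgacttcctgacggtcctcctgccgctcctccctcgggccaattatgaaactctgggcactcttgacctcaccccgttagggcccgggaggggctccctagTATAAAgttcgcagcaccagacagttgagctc
AREG: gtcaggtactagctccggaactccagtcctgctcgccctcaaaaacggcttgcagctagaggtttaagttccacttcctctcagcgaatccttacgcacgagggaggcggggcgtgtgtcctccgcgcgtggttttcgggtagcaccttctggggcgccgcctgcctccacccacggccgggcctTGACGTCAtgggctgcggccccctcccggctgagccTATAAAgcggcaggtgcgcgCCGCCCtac
HBEGF: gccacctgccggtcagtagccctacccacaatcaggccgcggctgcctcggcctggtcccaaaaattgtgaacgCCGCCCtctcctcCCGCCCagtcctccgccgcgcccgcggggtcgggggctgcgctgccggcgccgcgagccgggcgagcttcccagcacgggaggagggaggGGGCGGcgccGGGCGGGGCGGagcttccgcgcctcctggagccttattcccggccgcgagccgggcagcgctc
EGFR: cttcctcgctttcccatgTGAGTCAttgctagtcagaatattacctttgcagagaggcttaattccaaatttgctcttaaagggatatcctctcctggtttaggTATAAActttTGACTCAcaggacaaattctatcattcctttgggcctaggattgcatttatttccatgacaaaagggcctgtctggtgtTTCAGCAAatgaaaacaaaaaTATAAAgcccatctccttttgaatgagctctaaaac

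The motifs searched were the C/EBP sites TTGCGCAA and TTGCACAA, the C/EBP and ATF composites TTGCATCA and TTGCGTCA, the PAR bZIP site TTACGTAA, the looser C/EBP form TTGCNNAA (which covers TTGCGCAA and TTGCACAA), the AP-1 site TGACTCA, the CRE TGACGTCA, the GC box GGGCGG and the TATA box TATAAA. Windows ran from 250 bases before to 50 after the start, and the table held 9 such promoters for 7 of the 8 genes and none for ERBB3. None of the 9 held TTGCGCAA, TTGCACAA, TTGCATCA, TTGCGTCA or TTACGTAA, which 0.151%, 0.777%, 0.866%, 0.513% and 0.125% of all 35116 promoters hold. TTGCNNAA occurred once, at -57 in the EGFR entry shown, and in 10.5% of all promoters. By the spacing of the EGFR starts on GRCh38.p14, that entry lies between the summits 80.5 and 110.5 kb downstream of the EGFR TSS. No summit was called between those in either replicate. The same entry held TGACTCA at -232 and -136 (4.95% of all promoters) and TATAAA at -146 and -36 (11.5%). The AREG promoter held TGACGTCA at -65, a motif of 1.85% of all promoters, besides TATAAA at -29 and GGGCGG at -9. EREG held TATAAA at -32 and no other motif. HBEGF held GGGCGG at 5 positions and no TATAAA, in a stretch with a GC content of 76.4%, against 58.0% in EREG. GGGCGG was found in 5 of the 9 promoters and in 45.0% of all.

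EGFR, the receptor that all 4 ligands bind, had 4 regions upstream and 6 downstream of its TSS. The nearest lay 1.4 kb downstream at chr7:55088211-55088557, with folds of 14.8 in replicate 1 and 22.8 in replicate 2 (mean 18.8 ± 5.60, SD, n = 2) and 95 and 141 fragments. The strongest by fold lay 26.0 kb upstream at chr7:55060242-55061246, with 34.1 and 25.4 (29.8 ± 6.13, SD, n = 2) and 87 and 126 fragments. By mean fold it was the strongest region of any receptor locus. Without replicate 1 the region 62.8 kb downstream, with a fold of 26.7, was the strongest at EGFR, and an ERBB3 region 66.7 kb downstream of that gene was above both, at 27.1. Another EGFR region lay 23.6 kb upstream of the TSS, 2.4 kb from the one at 26.0 kb, with folds of 17.6 and 17.4. The region 188.1 kb upstream at chr7:54898593-54899869 had folds of 20.1 and 23.0 (21.5 ± 2.05, SD, n = 2) and 3 summits in each replicate. Within 50 kb of the EGFR start lay 5 of the 10 regions.

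At EGFR 51.8 kb upstream, chr7:55035021-55035431, replicate 1 had 107 fragments and replicate 2 had 64. Its folds were nearly equal, at 20.0 and 21.7 (20.9 ± 1.19, SD, n = 2), while the background was 4.0 expected fragments on the authors' scale in replicate 1 and 1.40 in replicate 2. Replicate 2 held 37.4% of its fragments, where regions of like height had 56.0%. This difference passed the two-sided exact binomial test (Benjamini-Hochberg adjusted p = 0.000878 over 25602 regions). It was the 1 region of the 54 (1.85%) that did, against 2.92% of all regions, of which 1.70% of all had more in replicate 1 and 1.23% more in replicate 2. The test compares the 2 libraries, covers counting error only and says nothing of conditions.

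ERBB3 held 8 regions, 4 on each side. Its strongest lay 66.7 kb downstream at chr12:56540455-56540895, with folds of 21.8 and 27.1 (24.5 ± 3.77, SD, n = 2) and 80 and 112 fragments. Next by fold came chr12:56614396-56614851, 140.7 kb downstream (19.0 ± 0.339, SD, n = 2; 78 and 119 fragments), and chr12:56570141-56570480, 96.3 kb downstream (18.1 ± 4.02, SD, n = 2; 40 and 71 fragments). A pair of regions stood close upstream of the start. The nearer, 2.1 kb upstream at chr12:56471783-56472133, had 78 and 94 fragments and a fold of 16.8 ± 3.10 (SD, n = 2), and the farther, 8.4 kb upstream at chr12:56465415-56465784, had 58 and 65 fragments and 14.0 ± 4.83 (SD, n = 2). ERBB3 was thus the only gene of the 8 with reproducible regions within 10 kb upstream. By fragments its largest region was another one, singled out after its values were seen. At 107.9 kb upstream it held 163 and 187 fragments over a background of 10.0 and 6.0, which gave folds of 13.8 and 21.5. The mean background of all summits at ERBB3 was 1.26 and 1.29 times that of all summits in replicates 1 and 2, the highest of the 8 loci in both, and its part in the folds there was not tested.

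ERBB2, the receptor that pairs with the others without a ligand of its own, had 1 region. It lay 82.4 kb downstream at chr17:37925968-37926824, with folds of 15.4 and 14.6 (15.0 ± 0.571, SD, n = 2) and 87 and 97 fragments. The other summits of the locus, 7 in replicate 1 and 8 in replicate 2 outside that region, had folds of at most 8.45 and 11.4. The next reproducible region lay just outside the window, 201.9 kb upstream, and had a fold of 47.2, so the count of 1 depends on where the window ends.

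AREG and EREG lie 80 kb apart, and by mean fold the strongest ligand regions were ones they share. The strongest by fold stood 26.3 kb upstream of EREG and 106.3 kb upstream of AREG, at chr4:75204440-75204973. It had folds of 47.9 in replicate 1 and 21.0 in replicate 2 (34.4 ± 19.1, SD, n = 2), although fragments were more numerous in replicate 2, at 156 against 106. The background was 1.07 in replicate 1 and 5.0 in replicate 2, so the order of the folds followed the background and not the fragments. Without replicate 1 the strongest region was another one at both genes, 9.4 kb downstream at EREG and 198.1 kb downstream at AREG, and the strongest of all ligand regions was then the HBEGF region 74.0 kb upstream, with a fold of 32.7.

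Between the 2 genes, 9.4 kb downstream of the EREG start and 70.6 kb upstream of AREG, lay chr4:75239969-75240716. It had folds of 33.9 and 28.1 (31.0 ± 4.11, SD, n = 2) and 182 and 171 fragments, the most of any ligand region in both replicates. EREG was in this way the only ligand gene with a reproducible region within 10 kb. A further shared region, chr4:75411186-75412183, 100.4 kb downstream of AREG and 180.4 kb downstream of EREG, had 103 and 132 fragments (23.0 ± 5.20, SD, n = 2). The region nearest to the AREG start, 28.1 kb downstream at chr4:75338930-75339199, was weaker, with folds of 15.5 and 15.1 (15.3 ± 0.267, SD, n = 2) and 49 and 50 fragments.

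Each gene also had regions of its own. At the far downstream edge of the AREG window, 198.1 kb from its start, chr4:75508890-75509327 had folds of 27.2 and 29.1 (28.2 ± 1.36, SD, n = 2) and 87 and 108 fragments. EREG alone had a pair of regions 134.2 and 141.3 kb upstream, with mean folds of 21.9 ± 7.51 and 20.5 ± 10.8 (SD, n = 2). In gene order EREG is flanked by EPGN, which encodes the related ligand epigen, and AREG by BTC, which encodes betacellulin, so the windows lie in a cluster of EGF family genes. hg19 holds a near-identical copy of AREG downstream of it, and how reads that match both were assigned was not stated. The values within the AREG gene and within its copy are uncertain for that reason. How far the copied sequence extends beside them was not checked, so values close to either may be uncertain too.

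HBEGF had 6 regions and none within 10 kb of its start. The strongest lay 74.0 kb upstream at chr5:139799624-139800241, with folds of 28.1 and 32.7 (30.4 ± 3.22, SD, n = 2) and 85 and 118 fragments. It was the only HBEGF region among the strongest 10% of the genome. The next by fold, 103.2 kb upstream at chr5:139828991-139829343, had folds of 11.8 and 25.1 (18.5 ± 9.38, SD, n = 2) with 50 and 84 fragments over a background of 3.0 and 1.72. The nearest to the start was also the third by fold, 24.3 kb downstream at chr5:139701555-139701927, with 13.8 and 12.6 (13.2 ± 0.853, SD, n = 2) and 48 and 46 fragments.

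TGFA, the gene for transforming growth factor alpha, had 2 regions, both downstream. The nearer, 37.8 kb from its start at chr2:70743112-70743401, was among the weakest of the 54, with folds of 10.5 and 9.24 (9.88 ± 0.907, SD, n = 2) and 33 and 26 fragments. The farther, 182.0 kb from its start at chr2:70598833-70599168, had folds of 30.1 and 20.9 (25.5 ± 6.49, SD, n = 2) and 64 and 78 fragments. In gene order FAM136A follows TGFA on that side. TGFA and ERBB2 had the fewest summits as well, 11 in each replicate at TGFA and 9 and 10 at ERBB2, where ERRFI1 had 47 and 49.

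ERRFI1, the feedback inhibitor, held the tallest regions by fold. The highest stood 21.9 kb upstream at chr1:8107224-8108448, with folds of 48.2 and 27.9 (38.0 ± 14.4, SD, n = 2) and 155 and 173 fragments over a background of 2.0 and 4.0. Next was chr1:8271752-8272612, 186.2 kb upstream, with folds of 34.7 and 38.2 (36.4 ± 2.50, SD, n = 2) and 186 and 203 fragments, the most of all 54 regions in both replicates. These 2 means differed by less than the SD of the higher one, so their order is not resolved. Downstream, chr1:8077154-8078247 at 8.1 kb had folds of 30.1 and 29.1 (29.6 ± 0.667, SD, n = 2) and 81 and 109 fragments. The nearest to the start, at 5.7 kb downstream and chr1:8080173-8080441, was the weakest of the 54 by fold, with 8.98 and 9.45 (9.21 ± 0.329, SD, n = 2) and 28 and 46 fragments. A strong and a weak region thus lay 2.4 kb apart.

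The regions upstream of ERRFI1 were clustered. Where neighbouring summits lie at most 12.5 kb apart they are called a chain here, and 1 chain of 7 regions ran from 168.7 to 213.2 kb upstream, over chr1:8254480-8299439. Of its regions, 5 fell inside the 200-kb window and 2 beyond it. The 7 together held 645 fragments in replicate 1 and 699 in replicate 2, with folds from 12.9 to 36.4. A chain of at least 5 held 5 of the 54 regions (9.26%), all of them these, against 2.69% of all regions. A chain of at least 2 held 25 of the 54 (46.3%), against 39.6%. In gene order SLC45A1 lies on that side of ERRFI1, and which gene the chain belongs to was not tested. Summed over its 18 regions ERRFI1 had 1358 and 1521 fragments, ahead of ERBB3 with 652 and 816 and EGFR with 626 and 825.

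The edge of the window cut through a run of regions at ERRFI1. The nearest region outside was taken on either side of the window. At AREG, ERBB3 and ERBB2 it lay on the side opposite to the outermost region inside. At ERRFI1 the outermost region inside lay 193.0 kb upstream (mean fold 19.0) and the nearest outside 204.2 kb upstream (16.2). At AREG these were 198.1 kb downstream (28.2) and 214.2 kb upstream (21.9), at EREG 180.4 kb (23.0) and 246.4 kb downstream (10.9), and at EGFR 190.3 kb (10.6) and 228.2 kb downstream (15.0). For ERBB3 they were 140.7 kb downstream (19.0) and 213.6 kb upstream (9.68), for HBEGF 184.7 kb (12.3) and 240.1 kb downstream (18.2), and for TGFA 182.0 kb (25.5) and 271.9 kb downstream (10.1). At ERBB2 they were 82.4 kb downstream (15.0) and 201.9 kb upstream (47.2).

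The replicates placed the 54 summits at nearly the same base. Their distance had a median of 8 bp, as for all regions, and 49 of 54 lay within 20 bp, with a largest gap of 46 bp. Of all peaks at the 8 loci, 127 of 159 in replicate 1 overlapped a peak of replicate 2 (79.9%, 95% exact binomial interval 72.8 to 85.8%; 82.0% over the genome). In replicate 2 it was 128 of 188 (68.1%, interval 60.9 to 74.7%; 62.8% over the genome). The IDR table held 54 peaks of replicate 1 (34.0%, against 34.2%) and 55 of replicate 2 (29.3%, against 26.3%). Peaks without a partner were weak, with a median fold of 4.87 and a highest fold of 12.6 over 32 peaks of replicate 1, and 5.03 and 9.58 over 60 peaks of replicate 2. At ERRFI1 10 of 42 peaks had no partner in replicate 1 and 16 of 48 in replicate 2. At ERBB3 it was 5 of 25 and 14 of 34. HBEGF had 5 of 21 and 12 of 28, the largest share of the 8 loci in replicate 2. Over the 8 loci it was 32 of 159 and 60 of 188. Intervals cover counting error only, and fragments from PCR-amplified libraries are not independent molecules.

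**Figure D4:**
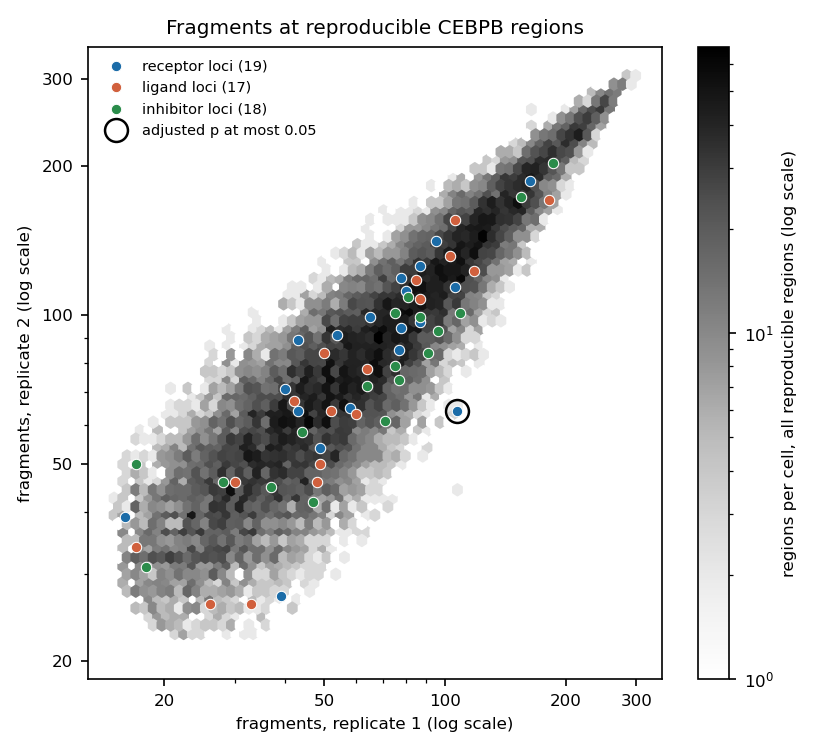
Fragments at each reproducible region in replicate 1 (horizontal, log scale) and replicate 2 (vertical, log scale); grey cells count all 25602 regions and points are the 54 regions by role. The points follow the grey band, and the circled EGFR region with 107 and 64 fragments lies below it.

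Fragments of replicate 2 divided by those of replicate 1 had a median of 1.21 at the 54 regions and 1.29 at all regions, with extremes of 0.598 and 2.94. The folds differed more than 1.5 times between replicates at 15 of the 54 (27.8%, against 29.7%). The background is the denominator of the fold, so a lower fold goes with a higher background in part by construction. Replicate 1 had the higher fold at 9 of the 15, and at 8 of the 9 the background was higher in replicate 2, as at 97.2% of the 3296 such regions of the genome. At 5 of the same 9 replicate 2 held more fragments, as at 61.5% over the genome. Replicate 2 had the higher fold at the other 6, and at 5 of those the background was higher in replicate 1, as at 79.9% of 4311 regions. In both directions together this was 13 of 15 (86.7%), against 87.4% of the 7607 regions of the genome. Among them were the shared AREG and EREG region and the EGFR region 62.8 kb downstream, singled out after its values were seen, with folds of 10.2 and 26.7 over backgrounds of 5.0 and 2.0. How much of a difference in fold came from the background and how much from the fragments was not tested.

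**Figure D5:**
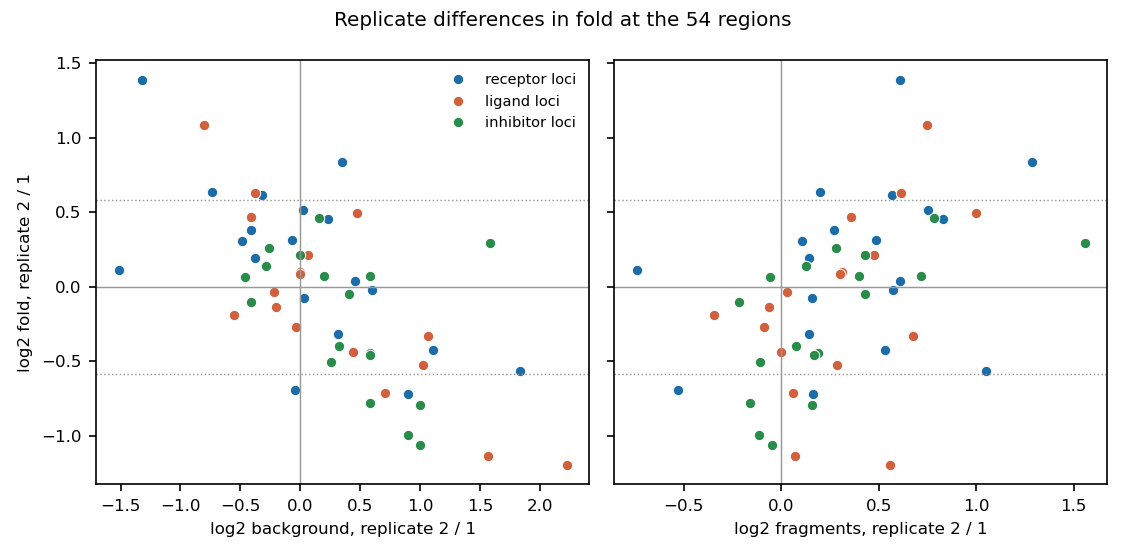
Difference in fold between replicates (log2 of replicate 2 over replicate 1, vertical axis) at the 54 regions against the same difference in background (left) and in fragments (right), coloured by role, with dotted lines at a ratio of 1.5. At 13 of the 15 regions outside the dotted lines the replicate with the lower fold had the higher background, a share close to that of all such regions (87.4%).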

How the data were processed

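CEBPB ChIP-seq peak lists of 2 replicates, called per sample, and the table of their irreproducible discovery rate (IDR) were analysed. The submitters' processing notes name Bowtie2 2.3.4, SAMtools 1.9, MACS2 2.1.2, bedtools 2.25.0, FastQC 0.11.7 and the hg19 build, with no settings. For every summit the authors deposited a score, a fold (the ratio of ChIP pileup to background, each with a pseudocount of 1) and the p-value and q-value, both as −log10. The deposited IDR table gives −log10 of the global IDR, and 4 of its columns of values per sample were not used here.

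From fold and −log10 p the whole fragments and the background were solved for, with a scale of 0.927 per fragment in replicate 1 and 0.800 in replicate 2. This gave whole numbers at 100% of summits, within 0.005 on −log10 p. No read totals were in the lists. The median summit held 24 fragments in replicate 1 and 28 in replicate 2. The depth of the inputs is unknown.

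A region is a distinct IDR interval, with the pair of summits within 100 bp that had the highest mean fold. It counted for a gene when any base lay within 200 kb of its TSS. The share of replicate 2 in the fragments of a region was set against the median share of the 1001 regions nearest in height (two-sided exact binomial test), adjusted over 25602 regions by the Benjamini-Hochberg method. The script was tested on simulated data. Named sites were regions within 10 kb of a TSS, the nearest, the 3 strongest by mean fold at each gene, and any that differed between replicates. Genes, members, motifs and lists were chosen with earlier results of these data known. A list of other pathway genes could not be placed, since no hg19 annotation was used here; gene order came from RefSeq on GRCh38.p14. Computation used Python 3.11.15 with SciPy 1.17.1, NumPy 2.4.6, statsmodels 0.14.6 and pandas 2.3.3, and figures were drawn with matplotlib 3.10.9. Alternatives covered the IDR threshold, the window, the pairing of summits, the ranking and leaving out each replicate.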

Additional observations from a re-analysis of the deposited data

How the results depend on the processing

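The number of regions at the 8 loci depended on how a region was defined. From 54 it went to 34 at an IDR of at most 0.01, to 29 within 100 kb and 19 within 50 kb of the TSS, and to 127 when summit pairs within 100 bp with a q-value of at most 0.01 took the place of the IDR table. From 1 replicate alone, counting summits at or above the median fold of its reproducible regions, it was 30 to 31. The median percentile of the regions by fold, 59.6, was 56.0 by fragments and 52.9 to 54.6 when either replicate was left out. Genes with a region within 10 kb of the TSS rose in number from 4 to 7 with summit pairs. By −log10 p the same region was strongest at 4 of the 8 genes, and it changed at AREG, EREG, ERBB3 and ERRFI1. Leaving out a replicate kept the strongest region at 4 to 8 of the 8 genes. ERBB2 had only 1 region, so its strongest could not change in any setting. AREG and EREG share their strongest region by mean fold and are not separate cases. Without replicate 1 the strongest became the region 198.1 kb downstream at AREG, 62.8 kb downstream at EGFR, 9.4 kb downstream at EREG and 186.2 kb upstream at ERRFI1. The causes of these changes were not tested, beyond the smaller windows and the stricter threshold holding fewer regions by construction. The 1 EGFR region that differed between replicates did so in both alternatives run. Counts of summits, shares with a partner and motif matches stayed within the spread or ratio set for them. No paired analysis was possible because the comparison is between the 2 replicates themselves. Depth limits what can be said of regions with few fragments, and an SD from 2 replicates is imprecise.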
